A study of Mus musculus with 14 samples.

Results

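The simple keratins and the desmosome genes were followed through an array series in which Cnot7, which encodes a poly(A)-shortening enzyme of the CCR4-NOT complex, was over-expressed or knocked down in mammary tumor cells. They comprised 4 keratin genes (Krt7, Krt8, Krt18 and Krt19) and 6 desmosome genes (Dsg2, Dsc2, Jup, Pkp2, Pkp3 and Dsp), 10 of the 19938 genes measured by a probe set with a single gene symbol. Each gene was represented by its probe set with the highest mean, and each of the 10 had 1 such probe set. The cells were 4T1, a mouse mammary tumor line from a BALB/c mouse, and RNA from 14 samples was hybridized to Affymetrix Mouse Gene arrays. Values are RMA log2 intensities, so a difference of 1 is a doubling of signal, and levels of different genes cannot be set against each other.

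The groups were 3 samples of 4T1 cells with a lentivirus expressing human FLAG-tagged CNOT7 (CNOT7 over-expression), 3 with the corresponding vector (vector control), 2 with the hairpin sh74 against Cnot7, 3 with a different hairpin, sh75, and 3 with a scrambled hairpin (shScramble). According to the methods, over-expression cells were selected with blasticidin and hairpin cells with puromycin. All groups therefore share a transduction and a drug selection, and no untransduced 4T1 cells were measured here. The design text names 3 biological replicates for each hairpin, but only 2 of the samples analysed here carry the sh74 label. The samples are called biological replicates, but nothing says that they were separate cultures or transductions. The p-values therefore cover only the spread among these samples, which may be technical. Sample titles carry numbers whose meaning the labels do not give. In sh75 cells and in CNOT7 over-expression cells, replicates 2 and 3 carry the same number, 5.

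Keratins are the intermediate filament proteins of epithelial cells. A type II keratin pairs with a type I keratin, and Krt8 with Krt18 is the pair that marks simple and luminal epithelium. Desmosomes tie these filaments to the cell surface: the cadherins Dsg2 and Dsc2 join neighboring cells, the armadillo proteins plakoglobin (Jup) and the plakophilins bind their tails, and desmoplakin (Dsp) anchors the keratin filaments.

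Cnot7 itself was read first. Mouse Cnot7 was 8.71 and 9.33 in sh74 cells (limma adjusted p 0.279) and 7.52, 8.51 and 8.07 in sh75 cells (adjusted p 0.00911), against 10.44, 10.33 and 10.20 in shScramble cells, so all 5 hairpin samples lay below all 3 shScramble samples, and the fall passed the test with sh75. In the over-expression arm it was 10.64, 10.02 and 10.08 in CNOT7 over-expression cells and 10.07, 10.52 and 10.15 in vector control cells. These values did not show the over-expression. The introduced cDNA is human and the probes are for the mouse gene, and whether they detect the human sequence was not tested. All 10 keratin and desmosome genes had means above 4.90, the 90th percentile of the olfactory receptor probe sets, which served as background. Samples of the same group differed in epithelial markers. Esrp1, an epithelial splicing factor, was 5.42 in CNOT7 over-expression replicate 3, 5.65 in sh74 replicate 1, 6.5 and 6.49 in sh75 replicates 2 and 3, and 5.21 in shScramble replicate 3, against 9.73 to 11.01 in the other 9 samples. Those 5 samples came from 4 of the 5 groups. Among the sh75 samples only replicate 1 was high (10.79), whereas all vector control samples were high (10.01 to 10.58). Low Esrp1 was thus not evenly spread over the groups. Markers of immune, endothelial, fibroblast and adipocyte cells gave 0 limma calls in every comparison, for 6, 4, 5 and 4 genes, with at most 1 gene of a list at an unadjusted p under 0.05. Of these, 2 immune, 2 endothelial, 3 fibroblast and 4 adipocyte genes had a mean above the background limit. A mean above this limit does not show that a gene is expressed. The adipocyte genes Adipoq and Lep passed it with means of 4.96, while array medians were 6.31 to 6.38.

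The keratins were bright and, apart from Krt19, varied little over the 14 samples. The promoters of 3 of them are shown first, because Krt8 and Krt18 lie next to each other on chromosome 15 with 0 coding genes between them and their levels moved together, as described further on. The sequences are the 250 bases upstream of the annotated start in RefSeq, mouse build GRCm38.p6, read along the gene's own strand. Capitals mark CACCTG, the E-box form bound by Zeb and Snail repressors, and the GC box GGGCGG or its reverse complement CCGCCC. The Krt8 sequence is chr15:102004343-102004592 on the minus strand, the Krt18 sequence chr15:102027966-102028215 on the plus strand and the Krt7 sequence chr15:101412153-101412402 on the plus strand.
Krt8: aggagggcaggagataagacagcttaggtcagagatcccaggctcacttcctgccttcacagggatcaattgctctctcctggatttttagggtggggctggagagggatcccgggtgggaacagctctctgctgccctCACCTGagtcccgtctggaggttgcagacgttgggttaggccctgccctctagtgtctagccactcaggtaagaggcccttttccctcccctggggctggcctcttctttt
Krt18: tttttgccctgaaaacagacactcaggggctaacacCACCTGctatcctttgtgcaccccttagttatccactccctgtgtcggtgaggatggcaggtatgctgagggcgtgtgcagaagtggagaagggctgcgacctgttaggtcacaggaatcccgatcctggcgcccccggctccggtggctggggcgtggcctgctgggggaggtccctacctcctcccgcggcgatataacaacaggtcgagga
Krt7: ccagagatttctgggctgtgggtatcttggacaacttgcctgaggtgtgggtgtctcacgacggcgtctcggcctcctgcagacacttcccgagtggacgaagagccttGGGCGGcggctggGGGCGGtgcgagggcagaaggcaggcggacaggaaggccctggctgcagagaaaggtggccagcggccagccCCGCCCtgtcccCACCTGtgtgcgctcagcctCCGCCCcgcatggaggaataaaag
Each of the 3 keratin promoters held CACCTG once, with its first base at position -111 in Krt8, -214 in Krt18 and -44 in Krt7 relative to the start. Searched on both strands, this motif occurred in 17.2% of all 32851 promoters of that length in the table. The GC box occurred 4 times in Krt7, and in 32.7% of all promoters. Of the 10 genes, 5 had a promoter that was searched. The other 2, Jup and Dsp, held GC boxes, 2 in Jup and 4 in Dsp. AP-1 sites (TGANTCA, 6.75% of all promoters), TATAAA (12.4%) and the Grainyhead-like site AACCNGTT (1.79%) were searched as well and had no match in these 5. The motifs do not overlap in these sequences, and a match is only a match of letters.

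Krt8, the type II keratin of simple epithelium, was 11.13, 11.73 and 11.80 in the CNOT7 over-expression samples and 11.40, 11.83 and 11.44 in the vector control samples. It was 11.68 and 11.87 in sh74 cells, 11.86, 11.65 and 11.38 in sh75 cells, and 11.82, 11.73 and 11.75 in shScramble cells. CNOT7 over-expression replicate 1 was the lowest sample and sh75 replicate 3 the next, and the ranges of all 5 groups overlapped. The limma change was -0.01 ± 0.18 (SE) for CNOT7 over-expression minus vector control, 0.01 ± 0.20 for sh74 minus shScramble and -0.14 ± 0.18 for sh75 minus shScramble. None passed the test (limma adjusted p 1.0, 0.998 and 0.890).

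Krt18, the type I partner of Krt8, was 11.73, 12.13 and 12.18 in CNOT7 over-expression cells and 11.96, 12.30 and 12.02 in vector control cells. It was 12.12 and 12.23 in sh74 cells, 12.14, 12.05 and 11.76 in sh75 cells, and 12.29, 12.13 and 12.21 in shScramble cells. The lowest samples were again CNOT7 over-expression replicate 1 and sh75 replicate 3, the same pair as for Krt8. Over all 14 samples Krt18 covered 0.57 log2 units, the narrowest range of the 10 genes. Its change was -0.08 ± 0.14 (SE) with CNOT7 over-expression, -0.04 ± 0.15 with sh74 and -0.23 ± 0.14 with sh75, with limma adjusted p-values from 0.712 to 1.0.

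Krt7, a type II keratin of glandular ducts, was the gene among the 10 with the smallest p in any comparison. It was 11.73, 11.52 and 11.53 in sh75 cells, against 12.12, 11.84 and 12.04 in shScramble cells. The 2 lowest values of all 14 samples were sh75 samples, the 2 highest were shScramble samples, and the groups did not overlap. The change was -0.41 ± 0.11 (SE, 95% confidence interval -0.64 to -0.17), with an unadjusted limma p of 0.00310 and an adjusted p of 0.322 over the 21789 probe sets, so it did not pass. An exact two-sided permutation test over the samples gave p = 0.1, the smallest that 3 against 3 allow. The 2 lowest samples, sh75 replicates 2 and 3, carry the same number, 5, in their titles. The labels do not give its meaning. By title number, the difference was -0.10 for number 4 (1 sample in each group). For number 5 it was -0.51 (2 sh75 samples against 1 shScramble sample). With the number as a block it was -0.36 (limma adjusted p 0.777). With sh74, Krt7 was 11.77 and 12, overlapping shScramble, a change of -0.11 ± 0.12 (SE, limma adjusted p 0.897). The difference between the hairpins, sh74 minus sh75, was 0.29 ± 0.12 (SE, unadjusted limma p 0.0343, adjusted p 0.507), with no overlap between 11.77 and 12 in sh74 cells and the sh75 values. In the over-expression arm Krt7 was 11.66, 11.96 and 11.98 in CNOT7 over-expression cells and 11.92, 11.95 and 11.90 in vector control cells, a change of -0.06 ± 0.11 (SE, limma adjusted p 1.0).

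Krt19, a type I keratin with a very short tail, varied most among the keratins. It was 10.60, 10.09 and 10.02 in CNOT7 over-expression cells, and 8.87, 10.85 and 9.55 in vector control cells. In the hairpin arm it was 9.72 and 11.07 in sh74 cells, 10.66, 9.68 and 10.06 in sh75 cells, and 10.48, 10.18 and 9.74 in shScramble cells. The vector control group alone held the lowest sample of the series and the second highest, and the highest was sh74 replicate 2. The change was 0.48 ± 0.49 (SE) with CNOT7 over-expression, 0.26 ± 0.54 with sh74 and -0.00 ± 0.49 with sh75 (limma adjusted p 1.0, 0.959 and 0.999). The intervals reached from -0.59 to 1.55, from -0.93 to 1.46 and from -1.07 to 1.07, so with sh75 a doubling in either direction lies at the edge of what these arrays could tell from 0.

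**Figure D1:**
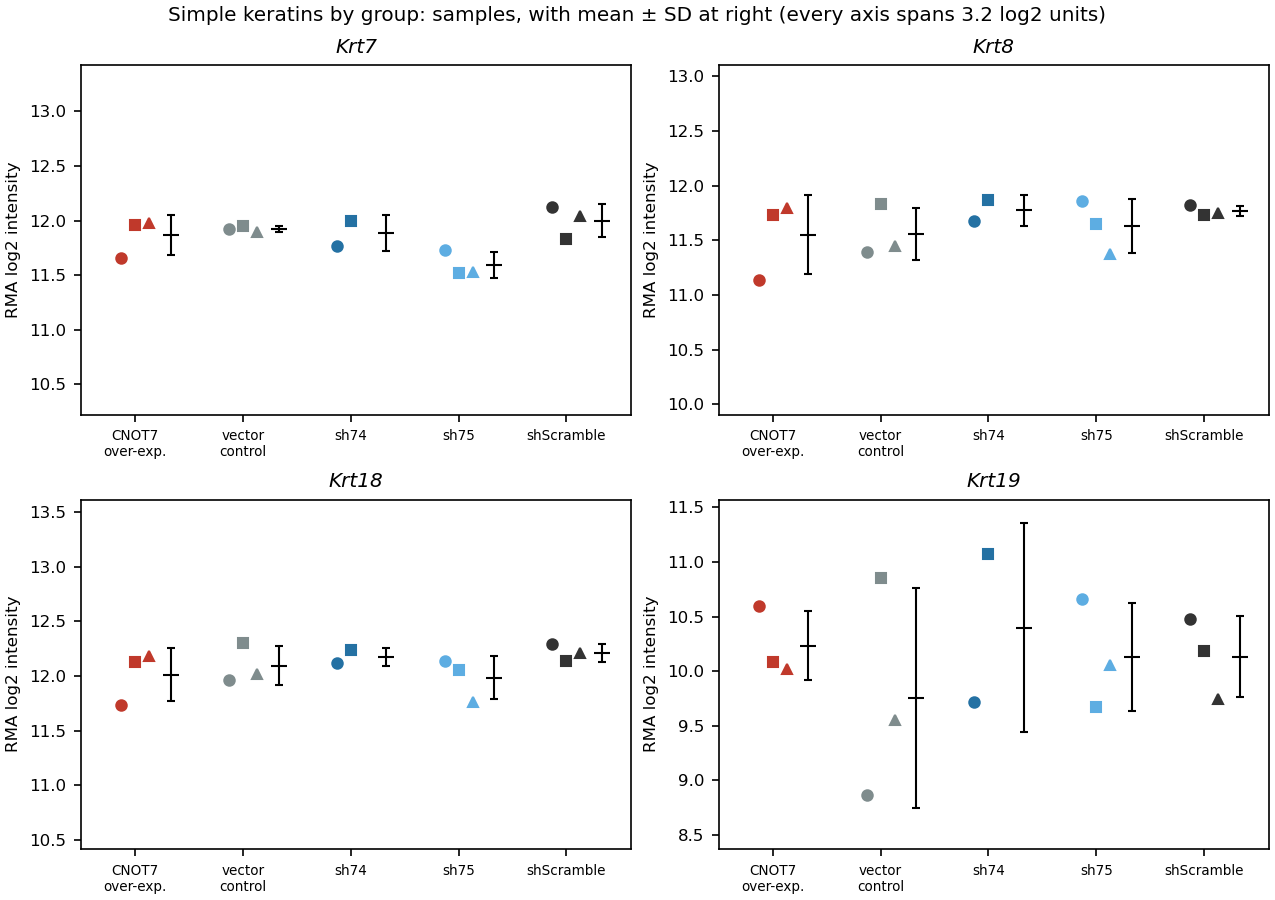
RMA log2 intensity (y axis, 3.2 log2 units in every panel) of the 4 keratins in each sample of the 5 groups (circle, square and triangle are replicates 1, 2 and 3), with the group mean ± SD in black. Krt7, Krt8 and Krt18 stay within 0.60, 0.74 and 0.57 log2 units over the 14 samples while Krt19 covers 2.2, and the sh75 samples of Krt7 lie below the shScramble samples.

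The desmosomal cadherins were the most variable of the 10 genes. Dsg2, the desmoglein of simple epithelia, was 9.36, 9.12 and 7.57 in CNOT7 over-expression cells and 9.11, 9.69 and 9.16 in vector control cells. It was 7.0 and 9.48 in sh74 cells, 8.96, 8.97 and 8.30 in sh75 cells, and 9.27, 9.24 and 8.36 in shScramble cells. Single samples were low, sh74 replicate 1 and CNOT7 over-expression replicate 3, and both were among the 5 samples with low Esrp1. The change was -0.64 ± 0.60 (SE) with CNOT7 over-expression, -0.71 ± 0.67 with sh74 and -0.21 ± 0.60 with sh75, and none passed (limma adjusted p 1.0, 0.887 and 0.954). Without sh74 replicate 1 the sh74 difference was 0.53, and without sh74 replicate 2 it was -1.95, where the remaining sh74 sample was assumed to vary like the other groups.

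Dsc2, the desmocollin of simple epithelia, had the widest range of the 10, 4.31 log2 units. It was 8.19, 7.13 and 7.86 in CNOT7 over-expression cells, and 6.55, 9.31 and 7.03 in vector control cells. In sh74 cells it was 5.0 and 7.89, in sh75 cells 6.99, 8.82 and 8.07, and in shScramble cells 6.80, 8.73 and 8.41. The value of 5.0 in sh74 replicate 1 was close to the background limit of 4.90. The SD within a group was 0.54 for CNOT7 over-expression and 0.92 to 2.04 for the other 4 groups. The sh74 change was -1.54 ± 0.99 (SE, limma adjusted p 0.806), against 0.10 ± 0.88 with CNOT7 over-expression (adjusted p 1.0) and -0.02 ± 0.88 with sh75 (adjusted p 0.998). Unlike Dsg2, Dsc2 was not low in shScramble replicate 3 or in CNOT7 over-expression replicate 3, and it was 6.80 in shScramble replicate 1, where Esrp1 was 10.76. Dsc2 and Dsg2 belong to the same cadherin cluster on chromosome 18, with 6 further desmosomal cadherin genes between them.

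Of the armadillo proteins, Jup binds the tails of both cadherins and is a relative of beta-catenin. Jup was 11.53, 11.12 and 10.96 in CNOT7 over-expression cells and 11.12, 11.69 and 10.95 in vector control cells. It was 11.39 and 11.75 in sh74 cells, 11.78, 11.71 and 10.83 in sh75 cells, and 11.39, 11.48 and 11.27 in shScramble cells. The sh75 group held both the highest and the lowest sample of the series. The change was -0.05 ± 0.26 (SE) with CNOT7 over-expression, 0.19 ± 0.29 with sh74 and 0.06 ± 0.26 with sh75 (limma adjusted p 1.0, 0.942 and 0.972).

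Pkp2, the plakophilin of simple epithelium and heart muscle, was 9.78, 9.56 and 9.19 in CNOT7 over-expression cells, against 9.96, 10.05 and 9.82 in vector control cells. The groups did not overlap, although the gap between the closest samples was small. The change was -0.43 ± 0.47 (SE, limma adjusted p 1.0), and the exact two-sided permutation test gave p = 0.1, again the smallest possible. In sh74 cells Pkp2 was 7.59 and 9.67, in sh75 cells 9.59, 8.65 and 8.70, and in shScramble cells 9.62, 10.00 and 8.86. The low samples were sh74 replicate 1, sh75 replicates 2 and 3 and shScramble replicate 3, all with low Esrp1. CNOT7 over-expression replicate 3, with Esrp1 at 5.42, was next at 9.19. The change was -0.87 ± 0.52 (SE, adjusted p 0.794) with sh74 and -0.51 ± 0.47 (adjusted p 0.829) with sh75. Without sh74 replicate 1 the sh74 difference was 0.18, and without sh74 replicate 2 it was -1.91, each resting on 1 sh74 sample.

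Pkp3, a plakophilin that is widespread in epithelia, stayed within 0.83 log2 units. It was 8.60, 8.01 and 8.19 in CNOT7 over-expression cells and 8.69, 8.35 and 8.25 in vector control cells. It was 8.06 and 8.39 in sh74 cells, 8.62, 8.31 and 8.25 in sh75 cells, and 8.84, 8.41 and 8.36 in shScramble cells. All groups overlapped. The change was -0.16 ± 0.19 (SE) with CNOT7 over-expression, -0.31 ± 0.21 with sh74 and -0.14 ± 0.19 with sh75 (limma adjusted p 1.0, 0.823 and 0.895).

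Dsp, the plakin that links the plaque to keratin filaments, was 9.88, 9.41 and 8.07 in CNOT7 over-expression cells and 9.64, 9.56 and 9.14 in vector control cells. It was 9.99 and 9.74 in sh74 cells, 9.83, 9.72 and 9.79 in sh75 cells, and 9.84, 9.81 and 9.08 in shScramble cells. The lowest samples, CNOT7 over-expression replicate 3 and shScramble replicate 3, both had low Esrp1. In sh74 replicate 1, however, where Esrp1 was 5.65 and Dsg2, Dsc2 and Pkp2 were at their lowest, Dsp was at its highest, 9.99. The change was -0.33 ± 0.37 (SE) with CNOT7 over-expression, 0.29 ± 0.42 with sh74 and 0.20 ± 0.37 with sh75 (limma adjusted p 1.0, 0.933 and 0.931).

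**Figure D2:**
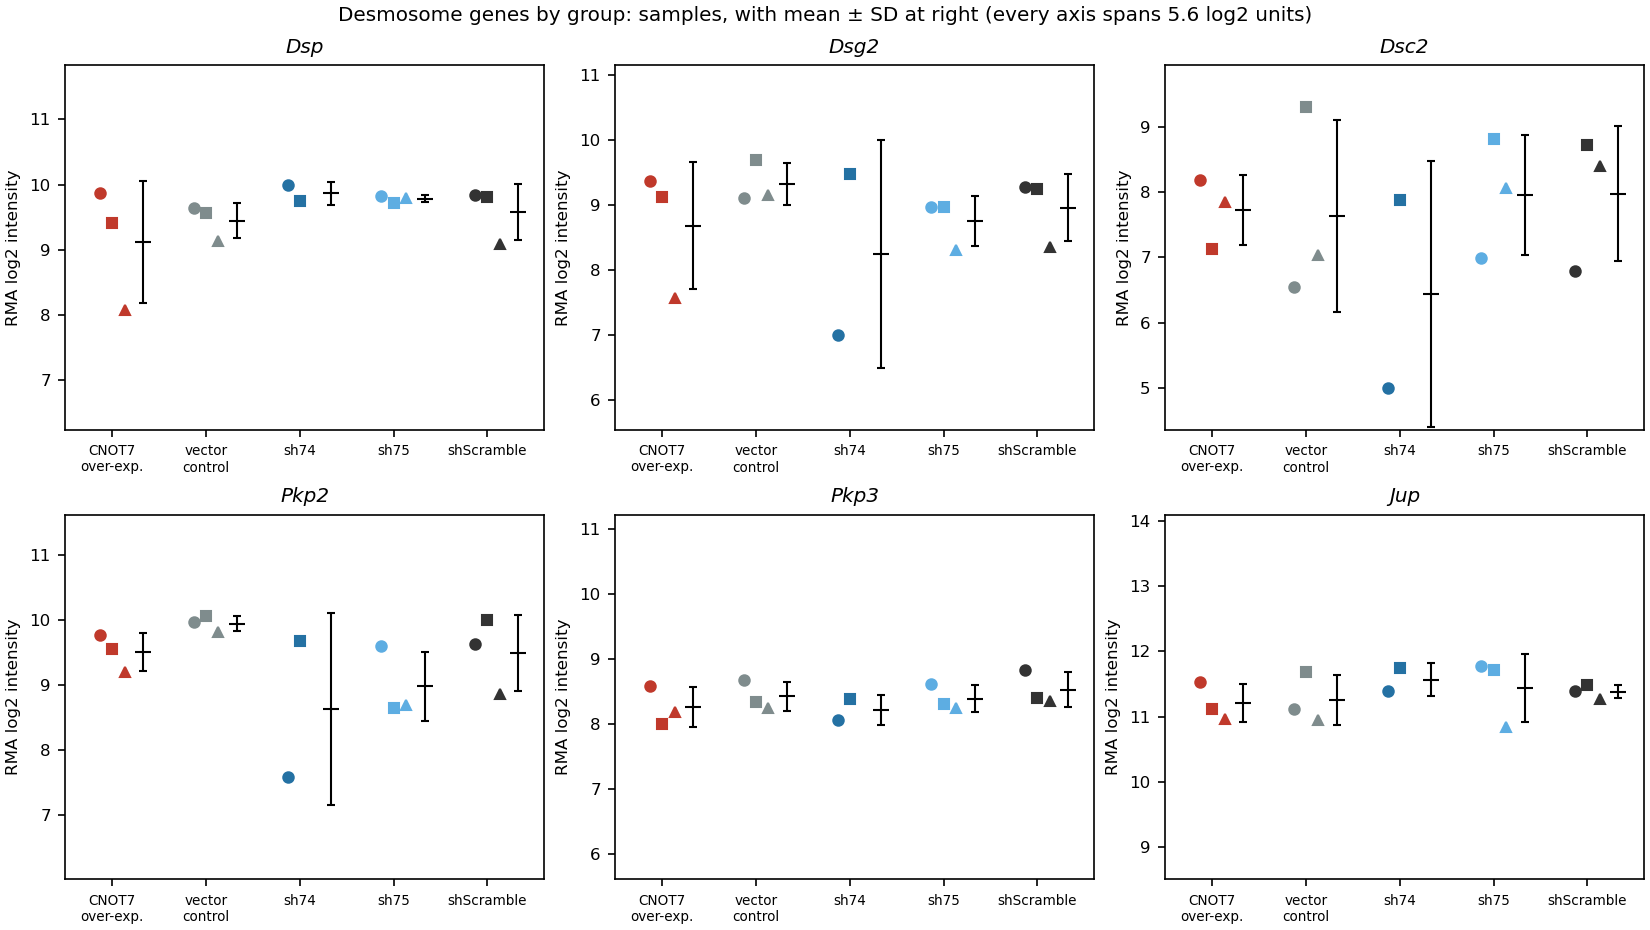
RMA log2 intensity (y axis, 5.6 log2 units in every panel) of the 6 desmosome genes in each sample of the 5 groups (circle, square and triangle are replicates 1, 2 and 3), with the group mean ± SD in black. The low points of Dsg2 (7.0), Dsc2 (5.0) and Pkp2 (7.59) are the same sample, sh74 replicate 1, and the low point of Dsp (8.07) is CNOT7 over-expression replicate 3.

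Set against the whole array, none of the 10 genes was called by limma in any comparison at an adjusted p under 0.05. For CNOT7 over-expression minus vector control the count was 0 of 10, beside 0% of all probe sets called, and 0 of the 10 had an unadjusted p under 0.05, beside 2.58% of all. For sh74 minus shScramble it was 0 of 10 beside 0.00918%, with 0 at an unadjusted p under 0.05 beside 7.33%. For sh75 minus shScramble it was 0 of 10 beside 0.0918%, with 1 (Krt7) at an unadjusted p under 0.05 beside 8.26%. The mean of both hairpins minus shScramble gave 0 of 10 beside 0.0184%, and Krt7 alone had an unadjusted p under 0.05, with a change of -0.26 ± 0.10 (SE, limma p 0.0214, adjusted p 0.600), beside 7.3% of all probe sets. For sh74 minus sh75 the count was 0 of 10 beside 0.174%, again with Krt7 alone at an unadjusted p under 0.05, beside 8.93%. The controls, vector control minus shScramble, gave 0 of 10 beside 0%, and 0 with an unadjusted p under 0.05, beside 3.7%. The methods' t-test with Benjamini-Hochberg adjustment also called 0 of 10 in each of these comparisons. The comparisons that include shScramble share those 3 samples.

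Counts of groups that did not overlap were likewise near or below the background. With CNOT7 over-expression minus vector control it was 1 of 10 genes (Pkp2), beside 7.72% of all probe sets, and with sh74 minus shScramble 0 of 10, beside 22%. With sh75 minus shScramble it was 1 of 10 (Krt7), beside 13.5%, and with sh74 minus sh75 also 1 of 10 (Krt7), beside 22.5%. With both hairpins together against shScramble it was 0 of 10, beside 3.93%, and with vector control minus shScramble 0 of 10, beside 9.74%. By direction, 2 of the 10 genes had a positive change and 8 a negative change with CNOT7 over-expression, and the median was -0.07, against 0.01 over all probe sets tested. With sh74, 4 were positive and 6 negative, with a median of -0.08 against 0.00 over all. With sh75, 2 were positive and 8 negative, with a median of -0.14 against -0.00 over all. These are counts of signs, and none of the changes behind them passed the test.

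**Figure D3:**
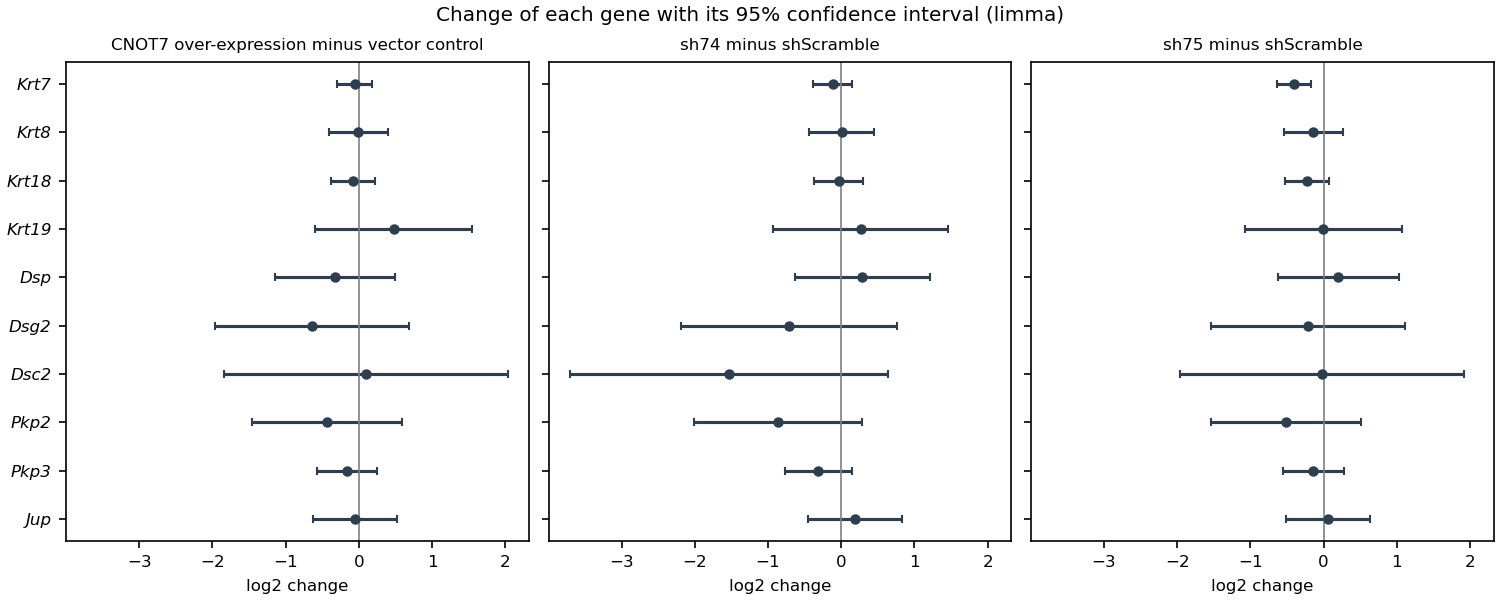
log2 change (x axis) of each of the 10 genes (y axis) with its 95% confidence interval from limma, for CNOT7 over-expression minus vector control, sh74 minus shScramble and sh75 minus shScramble. Every interval includes 0 except that of Krt7 with sh75 (-0.64 to -0.17), and the intervals of Dsc2, Dsg2 and Krt19 are the widest.

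An F test over the 5 groups asked whether any gene differed among treatments at all. It called 0 of the 10 genes, beside 0.0597% of all probe sets, and the smallest p was that of Krt7 (limma unadjusted p 0.0287, adjusted p 0.456). At an unadjusted p under 0.05 Krt7 was the only gene of the 10, beside 9.24% of all probe sets. The share of a gene's variance that lay between groups was 62.8% for Krt7 and 42.2% for Pkp2, and between 13.1% and 29.0% for the other 8. The median over all probe sets was 32.0%, and 30.8% would be expected of 5 groups and 14 samples with no group effect. When the 5 group means of each gene were ordered, 39 of the 40 neighboring pairs of groups had overlapping ranges. The exception was Pkp2, where CNOT7 over-expression (9.51 ± 0.29) came next below vector control (9.94 ± 0.12, SD, n = 3 each). Neighbors in this order have the closest means, so overlap is likely for any gene, and no share over all probe sets was computed. Groups farther apart in the order can still separate, as sh75 and shScramble did for Krt7. The lowest mean was that of sh75 for Krt7 and Krt18, of sh74 for Dsg2, Dsc2, Pkp2 and Pkp3, of vector control for Krt19, and of CNOT7 over-expression for Krt8, Dsp and Jup.

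Within groups, 4 of the 6 desmosome genes and Krt19 varied far more than most genes on the array. The within-group SD was 1.2 for Dsc2, 0.82 for Dsg2, 0.66 for Krt19, 0.63 for Pkp2 and 0.51 for Dsp, against a median of 0.13 over all probe sets. It was 0.35 for Jup, 0.25 for Pkp3, 0.24 for Krt8, 0.18 for Krt18 and 0.14 for Krt7. The SD over the 14 samples put Dsc2 at the 99.6th percentile of all probe sets, Dsg2 at the 98.7th, Pkp2 at the 98.3rd, Krt19 at the 97.4th and Dsp at the 96.0th. Krt18, Krt7, Krt8 and Pkp3 stood at the 62.1st, 65.4th, 74.3rd and 76.8th, and Jup at the 88.2nd. All 10 genes had means above the array medians, and their spread was not compared with that of probe sets of like brightness. The extremes fell in few samples. Of the 10 genes, 4 were highest in vector control replicate 2 (Krt18, Dsg2, Dsc2 and Pkp2), and 3 were lowest in sh74 replicate 1 (Dsg2, Dsc2 and Pkp2).

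The mean of the 6 desmosome genes, each centered on its own mean, was lowest in sh74 replicate 1 (-1.01) and CNOT7 over-expression replicate 3 (-0.54) and highest in vector control replicate 2 (0.59). Esrp1 in these samples was 5.65, 5.42 and 10.58, and Epcam, an epithelial adhesion molecule, 5.98, 7.71 and 9.26. The other samples with low Esrp1 had desmosome means of 0.18 and -0.19 (sh75 replicates 2 and 3) and -0.13 (shScramble replicate 3), and the remaining 9 samples had -0.12 to 0.59. The corresponding mean of the 4 keratins was lowest in vector control replicate 1 (-0.39), where Esrp1 was 10.08 and Cldn7, a tight junction claudin, 6.01. It was highest in sh74 replicate 2 (0.37), where Esrp1 was 10.65 and Cldn7 10.92. Krt19 had its own lowest and highest values in these samples. The values were not scaled, so Krt19 weighed most in this mean. Its SD over the 14 samples was 0.59, against 0.17 to 0.22 for the other keratins. Cldn7 was low in more samples than Esrp1. The next lowest keratin means were -0.24 and -0.20 in sh75 replicates 3 and 2, with Cldn7 at 6.79 and 5.85, and -0.20 in vector control replicate 3, with Cldn7 at 5.98. The keratin mean was -0.15 in CNOT7 over-expression replicate 1, where Cldn7 was 10.27. In CNOT7 over-expression replicate 3, sh74 replicate 1 and shScramble replicate 3, with Cldn7 at 5.94, 5.78 and 5.83, it was 0.07, -0.10 and 0.01. Vim, the intermediate filament protein of mesenchymal cells, was between 10.08 and 13.06. It was 13.06 in sh74 replicate 1, in which Krt8 and Krt18 were 11.68 and 12.12, close to their medians of 11.73 and 12.13. The part of these marker differences in the results was not tested.

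**Figure D4:**
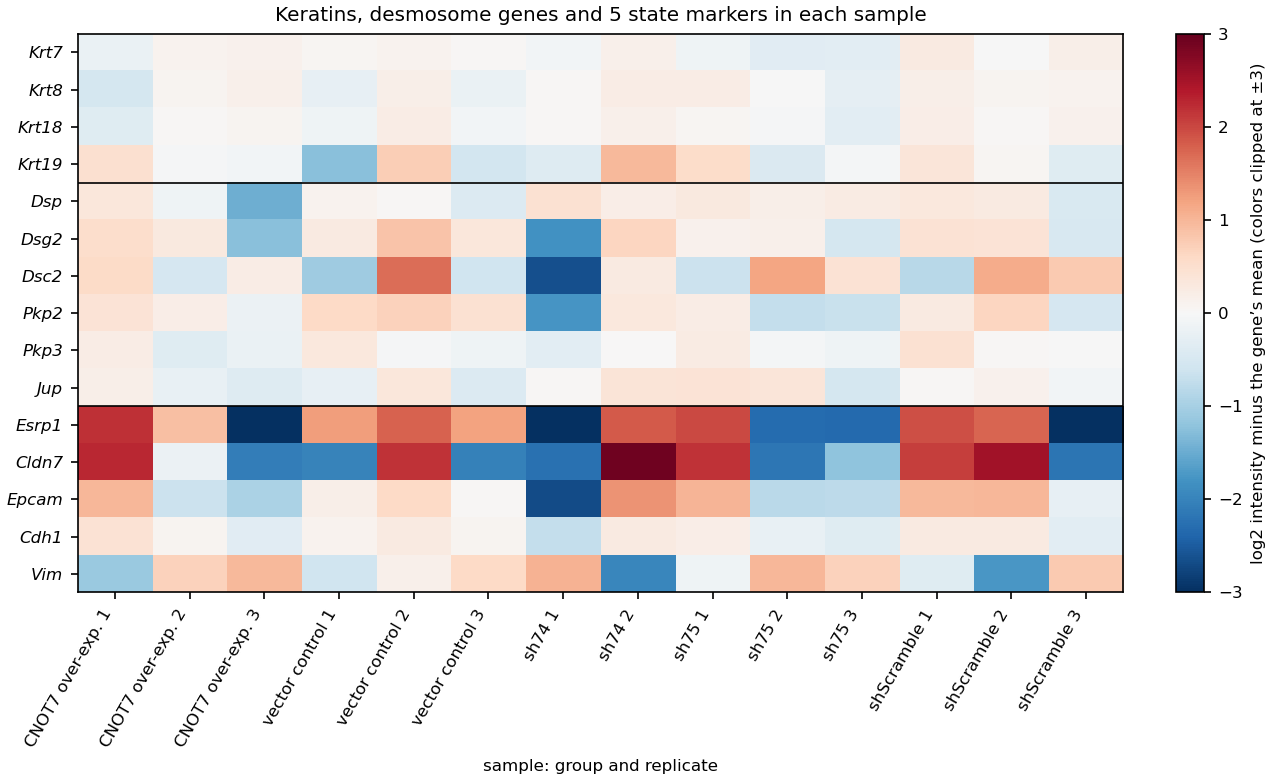
Log2 intensity minus the gene's mean (color, clipped at ±3) of the 4 keratins, the 6 desmosome genes and the markers Esrp1, Cldn7, Epcam, Cdh1 and Vim (rows) in the 14 samples (columns, by group). Esrp1 is low in 5 samples of 4 groups, whereas Krt7, Krt8 and Krt18 are nearly flat and the deepest desmosome decrease, in Dsg2, Dsc2 and Pkp2, is in sh74 replicate 1.

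Pairs of the 10 genes were compared over the 14 samples, 45 pairs in all, with p-values adjusted over the pairs. The permutation tests, for keratin and desmosome pairs alike, shuffled all 14 samples freely. Samples of a group share its treatment, which these tests do not allow for, so their p-values may be too small. Krt8 and Krt18 rose and fell together (Pearson r = 0.929, Spearman rho = 0.930). The permutation p was 1e-05 for both, the smallest that the 100000 resamples can give, and 0.00045 after adjustment. Without CNOT7 over-expression replicate 1 and sh75 replicate 3, the 2 samples farthest from the median of Krt8, r was 0.863, and over deviations from the group means it was 0.982. Among 10712 genes with a mean of at least 6, Krt18 had the highest r with Krt8, and Krt8 the highest with Krt18. Krt7 followed Krt18 less closely (r = 0.722, rho = 0.728, permutation p 0.00376, adjusted p 0.0564) and did not pass the correction. Its r with Krt18 ranked 21 among the same genes.

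In the desmosome, the pair that passed was Dsg2 and Pkp2, a cadherin and a plaque protein (r = 0.834, permutation p 0.00086, adjusted p 0.0194, and rho = 0.780, adjusted p 0.0367). Without the 2 samples farthest from the median of Dsg2, which were the lowest, r was 0.794, and over deviations from the group means it was 0.845. This pair was not each other's closest: Pkp2 ranked 23 among the 10712 genes for likeness to Dsg2, where Cdh1 (E-cadherin) was the closest at r = 0.912. Dsg2 ranked 102 for Pkp2, whose closest gene was Mpzl2 at r = 0.940. The cadherins Dsg2 and Dsc2 had r = 0.481 (adjusted p 0.427), and Dsp with Dsc2 and Dsp with Pkp2 had r = -0.167 and -0.052. Krt19 had r = 0.389 with Krt8 and 0.579 with Jup, with adjusted p-values of 0.506 and 0.330 that did not pass. The values for Krt19 and Krt8 depended on few samples: rho was 0.609 (adjusted p 0.206), and without CNOT7 over-expression replicate 1 and sh75 replicate 3 r was 0.883. For Krt19 and Jup, r was 0.498 without sh74 replicate 2 and vector control replicate 1. Of the 45 pairs, 34 had a positive r. The median r was 0.452 for the 6 pairs of keratins, 0.339 for the 15 pairs of desmosome genes and 0.078 for the 24 pairs of a keratin with a desmosome gene, and none of these 24 passed.

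**Figure D5:**
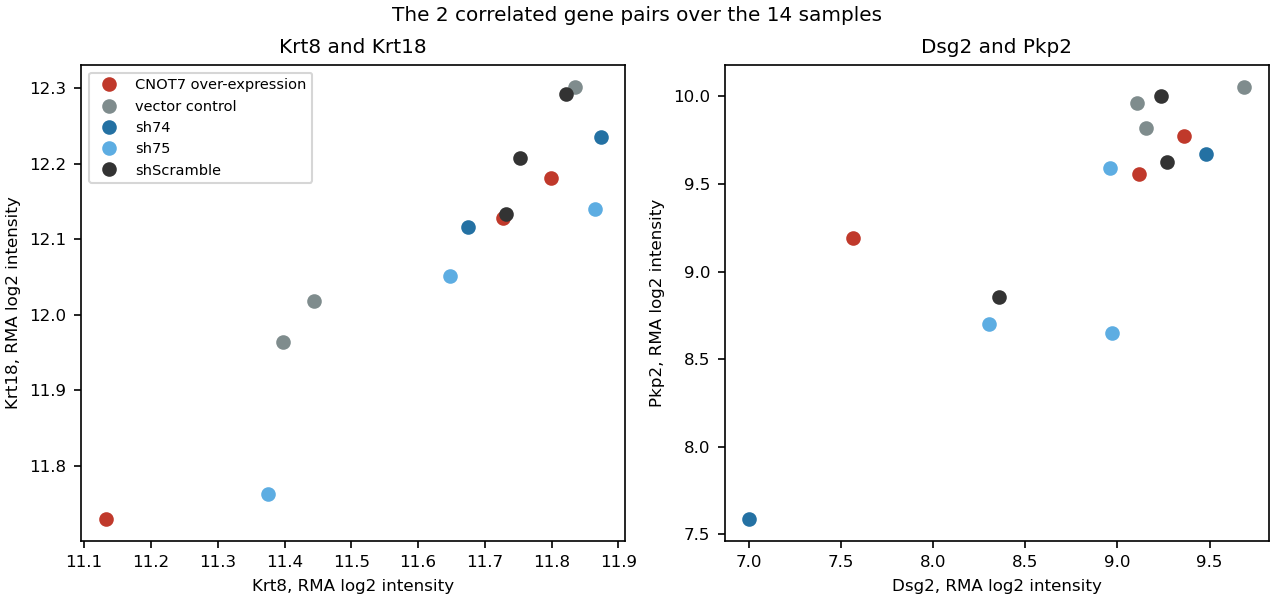
RMA log2 intensity of Krt18 against Krt8 (left) and of Pkp2 against Dsg2 (right) in the 14 samples, colored by group. Krt8 and Krt18 lie along a line over 0.74 and 0.57 log2 units (r = 0.929), and Dsg2 and Pkp2 do so over 2.68 and 2.47 (r = 0.834), with sh74 replicate 1 at the lower left.

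The genes whose pattern over the 14 samples was most like the mean of the centered keratins, among 10703 genes with a mean of at least 6, were Pfkfb4 (r = 0.892), Gpr39 (0.865), Dctn5 (0.856), Med18 (0.841) and Ptpn6 (0.837). The most opposed were Gtf2b (-0.924), Ric1 (-0.879) and Tspan5 (-0.869). For the mean of the centered desmosome genes the closest were Grb7 (r = 0.899), Crip1 (0.897), Ssbp4 (0.885), Mon1b (0.884) and Junb (0.869), and the most opposed Ppm1l (-0.917), Rap2a (-0.871) and B130055M24Rik (-0.870). The means were not scaled, so the most variable genes, Krt19 among the keratins and Dsc2 among the desmosome genes, weighed most in them. All genes were read on the same 14 arrays, samples of a group share a treatment, and no test was made of these values.

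Neighboring gene families were read from lists of known members. No gene of these lists passed limma in any of the 6 comparisons or in the F test, with the percentages of all probe sets called as above. Of the other simple-type keratins, 2 of 4 were above background. Krt80, a type II keratin of differentiating epithelia, was 8.70 and 9.26 in sh74 cells and 9.07, 8.51 and 9.56 in sh75 cells, against 10.16, 9.58 and 9.74 in shScramble cells. All hairpin samples lay below all shScramble samples, beside 3.93% of all probe sets without overlap in this comparison. The closest samples were 9.56 (sh75) and 9.58 (shScramble). The changes were -0.85 ± 0.31 (SE, limma adjusted p 0.576) with sh74 and -0.78 ± 0.28 (adjusted p 0.482) with sh75. Krt23 covered 5.0 to 6.07 and Krt20 4.29 to 4.68 over the 14 samples. Of the 19 basal and stratified keratins measured, 15 had a mean above background. An unadjusted p under 0.05 was found for 3 with sh74 and 1 with sh75, beside 7.33% and 8.26% of all probe sets. The keratins with such a p included Krt13, a keratin of stratified mucosa, at 5.69 and 5.79 in sh74 cells against 5.26, 5.28 and 5.24 in shScramble cells (change 0.48 ± 0.13 SE, limma adjusted p 0.392). Krt5, the basal type II keratin, was 5.30, 5.23 and 5.31 in sh75 cells against 5.79, 5.43 and 5.49 in shScramble cells (change -0.29 ± 0.09 SE, adjusted p 0.423), and Krt15 stayed between 5.11 and 5.48. Krt13, Krt5 and Krt15 all lay below the lowest array median, 6.31, so their signals were dim.

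The remaining desmosome and cornified envelope genes comprised 11 measured, 6 of them above background. Pkp4, an armadillo protein related to the plakophilins, was 9.06 and 9.29 in sh74 cells against 9.53, 9.5 and 9.31 in shScramble cells (change -0.27 ± 0.11 SE, limma adjusted p 0.630). With CNOT7 over-expression it was 9.65, 9.49 and 9.63, against 9.32, 9.30 and 9.45 in vector control cells (change 0.23 ± 0.09 SE, adjusted p 1.0). Periplakin (Ppl), a plakin like Dsp, covered 8.72 to 10.04. Dsg1c covered 3.81 to 4.26, within the background.

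Plectin (Plec), a plakin that links keratins to hemidesmosomes, was 10.14 and 9.36 in sh74 cells, against 9.04, 9.00 and 8.92 in sh75 cells (change 0.77 ± 0.22 SE, limma adjusted p 0.265). The hemidesmosome integrins gave the same direction: Itgb4 was 9.91 and 9.62 in sh74 cells, against 9.34, 9.44 and 8.46 in sh75 cells (change 0.69 ± 0.25 SE, adjusted p 0.426), and Itga6 was 10.77 and 10.71, against 10.45, 10.27 and 10.25 (change 0.41 ± 0.15 SE, adjusted p 0.427). In this comparison between the hairpins, 7 of the 7 hemidesmosome and linker genes had a positive difference, with a median of 0.41 against 0.00 over all probe sets, and 4 had an unadjusted p under 0.05, beside 8.93% of all, but 0 were called by limma. The corresponding counts were 6 positive of 7 for sh74 minus shScramble and 1 positive of 7 for sh75 minus shScramble, which share the shScramble samples.

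Among the 12 adherens junction genes, Afdn (afadin, an actin linker) was 9.89, 9.59 and 9.75 in sh75 cells, against 10.39, 10.59 and 10.09 in shScramble cells. These groups did not overlap, beside 13.5% of all probe sets in this comparison (change -0.62 ± 0.14 SE, unadjusted limma p 0.000955, adjusted p 0.204). In sh74 cells Afdn was between 10.22 and 10.32, overlapping shScramble. Its partner Nectin2, an adhesion molecule, was 7.88, 7.66 and 7.73 in sh75 cells against 8.2, 7.96 and 8.18 in shScramble cells. In sh74 cells Nectin2 was between 7.56 and 8.03. Nectin3 covered 7.44 to 9.24 over all samples. Of the 25 keratin partners and modifiers, 2 had an unadjusted p under 0.05 with sh75, beside 8.26% of all probe sets. These were Tfap2a, a transcription factor of epithelial genes, at 10.21, 10.03 and 9.87 in sh75 cells against 9.42, 9.79 and 9.57 in shScramble cells (change 0.45 ± 0.18 SE, limma adjusted p 0.559), and Cebpb, at 9.00, 9.5 and 8.82 against 8.11, 8.53 and 8.78 (change 0.63 ± 0.26 SE, adjusted p 0.570). In sh74 cells Tfap2a had a mean of 10.01 and Cebpb of 8.45, against 9.59 and 8.47 in shScramble cells. Snai1, a repressor of epithelial genes, stayed between 8.16 and 8.76. The other intermediate filament genes gave 0 of 14 with an unadjusted p under 0.05 in each of the 6 comparisons. The 3 with the smallest F test p were Ina (5.49 to 5.83), Nefl (4.40 to 4.76) and Lmnb1 (9.89 to 10.67).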

How the data were processed

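RNA from 14 samples of 4T1 cells was profiled on whole-transcript mouse arrays (GeneChip Mouse Gene 1.0 ST, Affymetrix). Per the submitters' processing notes, the authors ran RMA in oligo, with no versions given, and deposited normalized log2 values, which were used without further scaling. RMA equalizes the arrays' distributions, so a shift shared by all genes cannot be seen. Groups came from the sample labels. Of 35556 probe sets, 21789 had exactly 1 symbol and were tested, 1621 had several and 12146 none. No symbol needed updating. Array medians ran from 6.31 to 6.38, and olfactory receptor medians from 3.93 to 3.98. Precision was limited by the number of arrays.

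All comparisons were contrasts in a single model of the 14 samples (limma 3.58.1, R 4.3.3, lmFit and eBayes), two-sided, with Benjamini-Hochberg adjustment over the 21789 probe sets and a threshold of 0.05. The fit was tried on simulated data. Correlations used permutation tests with 100000 resamples (Python 3.11.15, scipy 1.17.1). Alternatives were the mean of a gene's probe sets, a filter on dim probe sets, median and quantile scaling, an intensity trend with a robust prior, array weights, only the compared groups, the methods' t-test, the title number as a block, and leaving out each sample. From each further gene list, those called or else the 3 with the smallest F test p were named, and the 5 most and 3 least similar genes to each mean profile. The ranks of gene partners, with the closest gene, were added after the correlations were seen. The 10 genes and the lists were chosen with earlier results of these data known. Promoters are from RefSeq, build GRCm38.p6. The array annotation names no build, so no other coordinates are given.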

Additional observations from a re-analysis of the deposited data

How the results depend on the processing

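None of the 10 genes was called in the 6 comparisons or the F test under any alternative run for them. Changes were recomputed for the 10 genes in the 3 main comparisons, and for Krt7 alone with the mean of both hairpins and between the hairpins. Of these 714 values, 675 kept their direction and 39 turned, 32 of these when a sample was left out. The cause of the turns was not tested. Many of the 714 could not turn, so the 675 are no measure of stability. Each gene had 1 probe set, and some alternatives alter only the spread. Leaving out a sample from a group outside a comparison does not alter its change. Quantile scaling gave -0.0186 for Krt8 with sh74 and 0.00147 for Krt19 with sh75. Array weights gave 0.0995 for Krt8 and 0.0590 for Jup with CNOT7 over-expression. The title number as a replicate block, which sh75 and shScramble share and the groups of the other main comparisons do not, gave 0.271 for Krt19, 0.0705 for Dsg2 and 0.0667 for Pkp3 with sh75, and changed no call of the 10 genes. Leaving out each sample in turn, the CNOT7 over-expression change ran from -0.114 to 0.0481 for Krt7, -0.13 to 0.20 for Krt8, -0.166 to 0.0597 for Krt18, -0.70 to 0.20 for Dsp, -0.44 to 0.93 for Dsc2 and -0.21 to 0.17 for Jup. The sh74 change ran from -0.23 to 0.000483 for Krt7, -0.0935 to 0.105 for Krt8, -0.0950 to 0.0234 for Krt18, -0.41 to 0.94 for Krt19, -1.95 to 0.53 for Dsg2 and -1.91 to 0.18 for Pkp2. The sh75 change ran from -0.27 to 0.22 for Krt19, -0.0457 to 0.335 for Dsp, -0.507 to 0.0123 for Dsg2, -0.61 to 0.46 for Dsc2, -0.254 to 0.0134 for Pkp3 and -0.11 to 0.36 for Jup. A lone sh74 sample was assumed to vary like the other groups.

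Over all probe sets, the count called for sh74 minus shScramble was 122 without sh74 replicate 2, against 2 with all samples, and the F test count 129 against 13. With all samples, sh74 minus shScramble gave 4 under quantile scaling, 1 with the robust prior, 1 with array weights and 0 with only the compared groups and by the methods' t-test, and the F test 25 under quantile scaling. The mean of both hairpins gave 0 to 89 when a sample was left out, against 4, and 0 with only the compared groups and by the methods' t-test. For sh75 minus shScramble it was 35 with array weights, 3 with only the compared groups, 2 with the block and 0 by the methods' t-test, against 20, and 6 to 36 when a sample was left out. For sh74 minus sh75 it was 12 to 55 when a sample was left out, 11 with array weights, 0 with only the compared groups and 0 by the methods' t-test, against 38. Signal close to background limits Dsc2 in sh74 replicate 1 alone, and the 2 sh74 samples limit every sh74 value.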
